A study of Homo sapiens with 4 samples.

Results

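Coding-only peaks are IGF2BP2 binding peaks that the deposited annotation placed in coding sequence (CDS) over their whole length, with no other region named. They were taken from the peak lists of 2 IGF2BP2 immunoprecipitation libraries, made by iRIP-seq from Jurkat cells. Replicate 1 held 5843 coding-only peaks among 145715 peaks, a share of 4.01% (Wilson 95% interval 3.91 to 4.11). Replicate 2 held 7040 among 137934, a share of 5.10% (4.99 to 5.22). The mean over both libraries was 4.56% ± 0.774 (SD, n = 2). The rule used no measured height or overlap, and every coding-only peak was kept, 12883 of 283649 in all. Another 3 peaks in replicate 1 and 7 in replicate 2 named CDS alone but with a share under 1, and they were not members.

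iRIP-seq is an RNA immunoprecipitation with UV crosslinking, and both libraries were enriched with an antibody against IGF2BP2. Jurkat is an established line of human T-cell acute lymphoblastic leukaemia, grown here without any genetic change or drug named in the labels. The labels also list 2 input libraries, which were not analysed here, so heights are those of the immunoprecipitated RNA alone. The labels do not say whether the replicates were separate cultures, and no depth is given beside the peaks.

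IGF2BP2 is a cytoplasmic protein that binds mRNAs through KH domains and slows their decay. It belongs to a family of readers of N6-methyladenosine (m6A), a methyl mark that writer enzymes place mostly in internal exons, around stop codons and in 3′ UTRs. The core of the methylated motif is GGAC. Ribosomes cross the coding sequence during translation, so a protein bound there shares the RNA with them. A peak inside an exon, with no intron in it, could come from spliced or unspliced RNA. Peaks that cross an exon edge cover some intron positions in their genomic interval. Peak bounds lie on a grid of 50 nt, so such an interval does not show that the bound RNA was unspliced.

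The lists give peaks on a grid of 50 nt, and the sequence of a 50 nt bin could be read where it lay inside a RefSeq promoter window or miRNA hairpin (GRCh38.p14). Sequence was read for 95 of 13485 bins, with a chromosome left out that is named after the sequences. Most of the 95 lay in the window of another gene, and 11 of the 95 lay in coding-only peaks of both replicates. Not printed are the shared bins of TPP2, ACIN1, POLRMT and ENTPD6, of which only the POLRMT bin holds GGAC. Printed here are those in genes described later and that of JUNB, on the strand of the peak, 5′ to 3′. GGAC is in capitals in the printed bins. The first is the bin at chr15:43793701-43793750 (+) in the highest pair of peaks, the next are from NUMA1, PCBP1 and FARSA, and the last is from JUNB.
Highest pair, chr15:43793701-43793750 (+): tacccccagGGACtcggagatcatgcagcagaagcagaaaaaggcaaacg
NUMA1, chr11:72014251-72014300 (-): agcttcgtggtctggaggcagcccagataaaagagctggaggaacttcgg
PCBP1, chr2:70088201-70088250 (+): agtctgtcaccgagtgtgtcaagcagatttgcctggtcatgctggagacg
PCBP1, chr2:70088401-70088450 (+): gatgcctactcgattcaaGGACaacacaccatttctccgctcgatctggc
FARSA, chr19:12930301-12930350 (-): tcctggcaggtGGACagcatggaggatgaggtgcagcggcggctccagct
FARSA, chr19:12930401-12930450 (-): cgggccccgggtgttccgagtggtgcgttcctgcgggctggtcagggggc
JUNB, chr19:12792501-12792550 (+): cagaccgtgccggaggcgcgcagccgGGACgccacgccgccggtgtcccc

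Of the 7 bins printed, those of the highest pair, JUNB, 1 of the 2 in PCBP1 and 1 of the 2 in FARSA hold GGAC. The NUMA1 bin lay in peaks of 6 tags in replicate 1 and 7.25 in replicate 2, and that of JUNB, an AP-1 transcription factor, in peaks of 4 and 6.75. The motif was searched on the RNA strand alone. It occurred in 29 of the 95 bins read, or 30.5% (Wilson 95% interval 22.2 to 40.4), and in 5 of the 11 bins found in both replicates. Among 421392 bins of 50 nt cut from all RefSeq promoter windows on both strands, chromosome 8 included, 17.1% held it. That chromosome also counts in the 13485 bins, but it was left out of the reading and holds none of the 95. Of the bins read, 1 lay in a miRNA hairpin, that of the highest pair. The others are coding sequence near the start of some transcript, while most promoter bins are not coding. The shares thus describe these letters and say nothing of methylation or of the bins not read.

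The highest shared binding lay in a few named mRNAs. The height of a peak is the deposited signal in tags, not adjusted for depth. The highest pair of overlapping coding-only peaks was 28 tags in replicate 1 and 32.5 in replicate 2, at chr15:43793700-43793750 (+) in the gene ENSG00000140264.21. No single symbol was given to that identifier because its peaks spread over 2 RefSeq genes, SERF2 and HYPK, and this peak lies within the interval of SERF2. Its bin printed earlier also lies inside the genomic interval of the MIR1282 hairpin. TCF3, which encodes the E2A transcription factors of lymphocyte development, had 26 and 42 tags at chr19:1623950-1624000 (-). In both replicates these leading peaks started at the same base.

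KCNAB2, a beta subunit of voltage-gated potassium channels, followed with 20 and 28 tags at chr1:6089000-6089050 (+). KMT2D, a histone H3 lysine 4 methyltransferase, had a pair of 17 and 26 tags at chr12:49052150-49052200 (-). PSMD2, a non-ATPase subunit in the regulatory particle of the proteasome, had 15 and 42 tags at chr3:184299850-184299900 (+). The PSMD2 pair was the least even of the 10 highest, and TCF3 was the next.

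HNRNPUL1, an hnRNP protein of the nucleus, had 16.5 and 15 tags. It was the only one of the 10 highest pairs that stood higher in replicate 1. The pair in FLNA, an actin-crosslinking filamin, had 14.5 and 17.5 tags. HSPA8, the constitutive Hsp70 chaperone, had 14 and 19 tags. DYNC1H1, the heavy chain of cytoplasmic dynein, had the same 14 and 19. NUCKS1, a nuclear DNA-binding phosphoprotein, closed the 10 with 14 and 15.5 tags. KMT2D, FLNA and DYNC1H1 also held more than 10 coding-only peaks in each replicate.

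**Figure D1:**
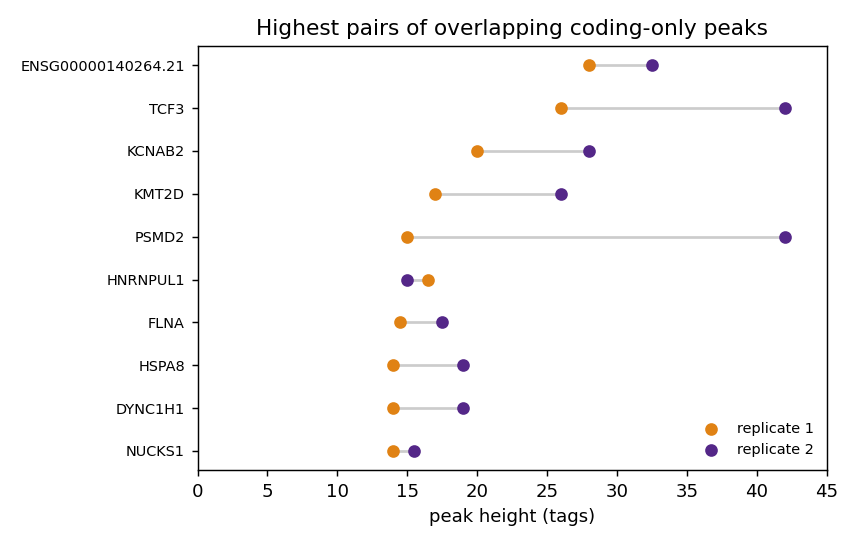
Height in tags (x axis) of the 10 highest pairs of overlapping coding-only peaks, ranked by the lower of the 2 heights, with orange points for replicate 1 and purple points for replicate 2. TCF3 and PSMD2 reach 42 tags in replicate 2, and only HNRNPUL1 lies higher in replicate 1.

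Shared peaks of 10 tags or more were also found in other genes. RUNX1, a transcription factor of haematopoiesis, had 13.7 tags in replicate 1 and 22 in replicate 2 over the same 150 nt. CXCR4, a chemokine receptor, had 14 and 12 tags. IL2RG, the common gamma chain of cytokine receptors, had 14 and 12 as well. EEF1A1, a translation elongation factor, had 13.7 and 18.7 tags, and PKM, a pyruvate kinase of glycolysis, had 11.5 and 13. In total 60 pairs in 57 genes reached 10 tags in both replicates, and 100 genes had a coding-only peak of that height in each. Counting 1 pair per gene, RUNX1, EEF1A1, CXCR4, IL2RG and PKM ranked at 11, 12, 22, 23 and 24, below the 10 pairs of the naming rule, and they were picked after their values were seen.

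Most coding-only peaks were low. The median height was 4 tags in replicate 1, with a range of 4 to 28, and 6 in replicate 2, with a range of 5 to 42. The lowest height of each list was 4 and 5 tags, and 50.9% of coding-only peaks in replicate 1 and 42.7% in replicate 2 stood at it. In replicate 1, 187 coding-only peaks, or 3.20% (Wilson 95% interval 2.78 to 3.68), had 10 tags or more, beside 1.68% of all peaks. In replicate 2 there were 648, or 9.20% (8.55 to 9.90), beside 5.97% of all peaks. For peaks wholly in 5′ UTRs the shares were higher, 4.68% and 9.93%, and for those wholly in 3′ UTRs lower, 1.01% and 2.78%. Most coding-only peaks, 89.6% and 85.7%, were of the minimum length in the lists, given there as 51 nt.

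High coding-only peaks were less frequent than high peaks across an exon edge and more frequent than high intron peaks. Among peaks that named both CDS and intron, called edge peaks here, 9.89% of 10914 in replicate 1 and 24.6% of 15413 in replicate 2 had 10 tags or more. Coding-only minus edge peaks, the difference was -6.69 percentage points in replicate 1 (Fisher's exact test, two-sided, adjusted p = 3.95e-62 over 8 tests) and -15.4 points in replicate 2 (exact adjusted p = 5.94e-177). Among intron-only peaks the shares were 0.227% of 46605 and 0.921% of 41695. Coding-only peaks exceeded them by 2.97 points (exact adjusted p = 2.40e-103) and 8.28 points (exact adjusted p = 7.20e-286). These tests compare peaks within a library, where peaks of the same gene are not independent, so the p-values are too small. With CDS as the largest share in place of the only class, the difference from the remaining edge peaks was -0.694 points in replicate 1 (exact p = 0.146) and -1.60 points in replicate 2 (exact p = 0.00832).

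Just outside the rule lay edge peaks with a CDS share of 0.95 or more, 653 in replicate 1 and 942 in replicate 2. Their median height was 5 and 7 tags, against 4 and 6 for the coding-only peaks. Of these near misses, 8.73% and 25.9% had 10 tags or more.

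Coding-only peaks recurred between replicates more often than the average peak. Of those in replicate 1, 1781 met a same-strand peak of replicate 2, a share of 30.5% (Wilson 95% interval 29.3 to 31.7), beside 9.19% of all peaks of that list. Of those in replicate 2, 1551 did so, a share of 22.0% (21.1 to 23), beside 9.62% of all peaks. The mean share was 26.3% ± 5.97 (SD, n = 2). Where a coding-only peak was overlapped, its highest partner was also coding-only in 80.7% of cases from replicate 1 and 90.6% from replicate 2. An edge peak was the partner in 13.6% and 6.13%. Peaks on the opposite strand of the same list overlapped only 31 and 25 coding-only peaks.

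Overlap in the most similar class was higher still. Edge peaks were overlapped in 53.0% of cases in replicate 1 and 37.9% in replicate 2. Coding-only minus edge peaks, the difference was -22.5 points in replicate 1 (Fisher's exact test, two-sided, adjusted p = 4.45e-174) and -15.8 points in replicate 2 (exact adjusted p = 5.30e-126). Intron-only peaks were overlapped in 2.91% and 3.22% of cases. Coding-only peaks were 27.6 and 18.8 points above them, with exact p-values too small to write as numbers. With CDS as the largest share, the difference from the remaining edge peaks was -3.39 points in replicate 1 (exact p = 8.59e-05) and turned to 2.50 points in replicate 2 (exact p = 3.66e-04). With a minimum of 10 tags in both lists, the replicate 2 differences were -6.21 points from edge peaks (exact p = 2.90e-05) and 5.24 points from intron-only peaks (exact p = 0.00321).

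The classes differed in height, and in each class overlap rose with height up to 15 tags in replicate 1 and throughout in replicate 2. Among coding-only peaks of replicate 1, overlap was 20.9% at 4 to under 5 tags, 44.3% at 6 to under 8 and 69.7% at 10 to under 15. The 35 peaks of 15 tags or more stood at 60.0% (Wilson 95% interval 43.6 to 74.4). In replicate 2 it was 11.8% at 5 to under 6 tags, 36.9% at 8 to under 10 and 69.9% at 15 or more. At 4 to under 5 tags in replicate 1, edge peaks stood at 37.1% and intron-only peaks at 1.77%. At 15 tags or more in replicate 2, coding-only peaks at 69.9% (62 to 76.7) and edge peaks at 72.8% (70.2 to 75.3) had overlapping intervals, while intron-only peaks stood at 41.3%. From 10 tags, coding-only and edge peaks stood at 67.9% and 75.9% in replicate 1 and at 58.5% and 63.2% in replicate 2. The gap to edge peaks was thus narrower from 10 tags than at the lowest heights in both replicates. At 15 tags or more in replicate 1 it was wide again, with edge peaks at 74.5%.

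**Figure D2:**
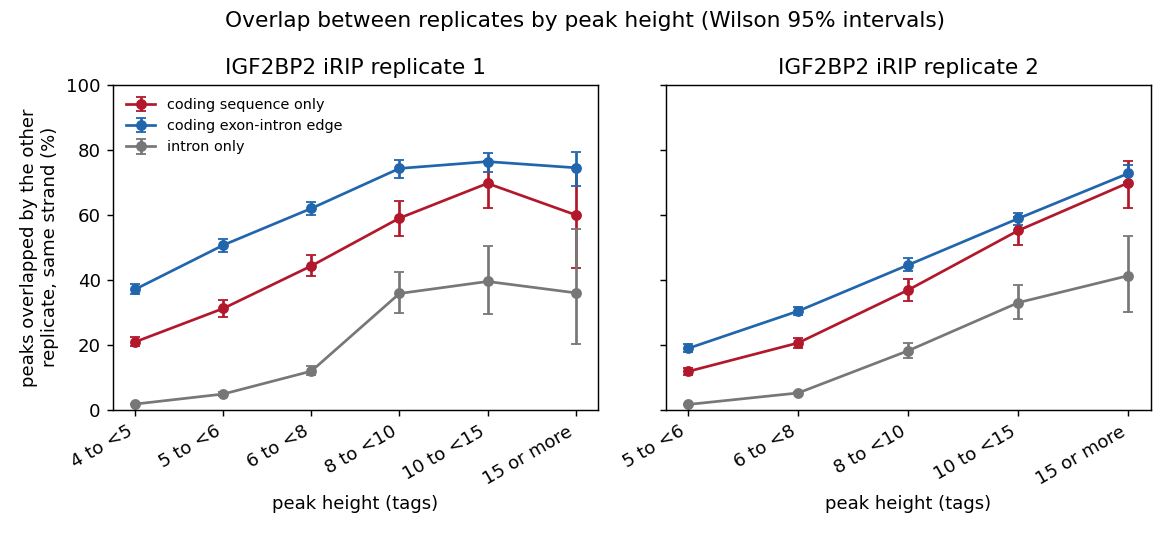
Share of peaks overlapped by the other replicate on the same strand (y axis, percent) by peak height in tags (x axis), for each replicate, with Wilson 95% intervals as bars. Coding-only peaks (red) lie between edge peaks (blue) and intron-only peaks (grey) at every height. In both replicates the red and blue intervals overlap from 10 tags.

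Coding-only peaks of one replicate overlapped coding-only peaks of the other in 1439 pairs counted from replicate 1, and 801 of these, or 55.7%, had the same start and end. Their heights were related across pairs (Pearson r = 0.473, Spearman rho = 0.360, n = 1439), given as a description, since pairs of the same gene share a transcript and a library. The median height was 5 tags in replicate 1 and 7 in replicate 2, and 78.0% of the pairs were higher in replicate 2. The lists start at different heights and their depths are unknown, so this share cannot be told apart from a difference in depth.

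Peaks without a partner were mostly in genes that did recur. Of 4062 coding-only peaks of replicate 1 with no overlap, 68.8% lay in a gene with a coding-only peak in replicate 2, and 17.7% were within 50 nt of one. Of 5489 in replicate 2, 65.8% lay in a gene with a coding-only peak in replicate 1, and 14.4% were within 50 nt. SF3B3, a subunit of the SF3b complex of the spliceosome, shows this at 1 gene: it had 4 coding-only peaks in each replicate and none overlapped. NCL, the nucleolar protein nucleolin, had 3 in each, with heights up to 13 and 15 tags, and none overlapped. KMT2C, the paralogue of KMT2D, had 11 and 8 with no overlap, whereas 23 of 31 in KMT2D were overlapped in replicate 1 and 18 of 37 in replicate 2.

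The coding-only peaks fell in 2923 genes in replicate 1 and 3263 in replicate 2, with 4394 in either and 1792 in both. A single peak was found in 61.7% of these genes in replicate 1 and 57.9% in replicate 2. At the other end, 202 genes in replicate 1 with 5 or more peaks held 29.8% of all coding-only peaks, and 282 genes in replicate 2 held 33.7%. Of the genes with 1 peak in replicate 1, 46.1% had one in replicate 2, against 83.0% of those with 2 to 4 and 98.0% of those with 5 or more. From replicate 2 the shares were 38.7%, 72.1% and 97.2%. Counts per gene were related over the genes found in both (Pearson r = 0.857, Spearman rho = 0.602, n = 1792), a description in which the counts of a gene share its coding length and mRNA level, and neither was adjusted for. An overlapping pair was present in 854 of the 1792, or 47.7%.

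**Figure D3:**
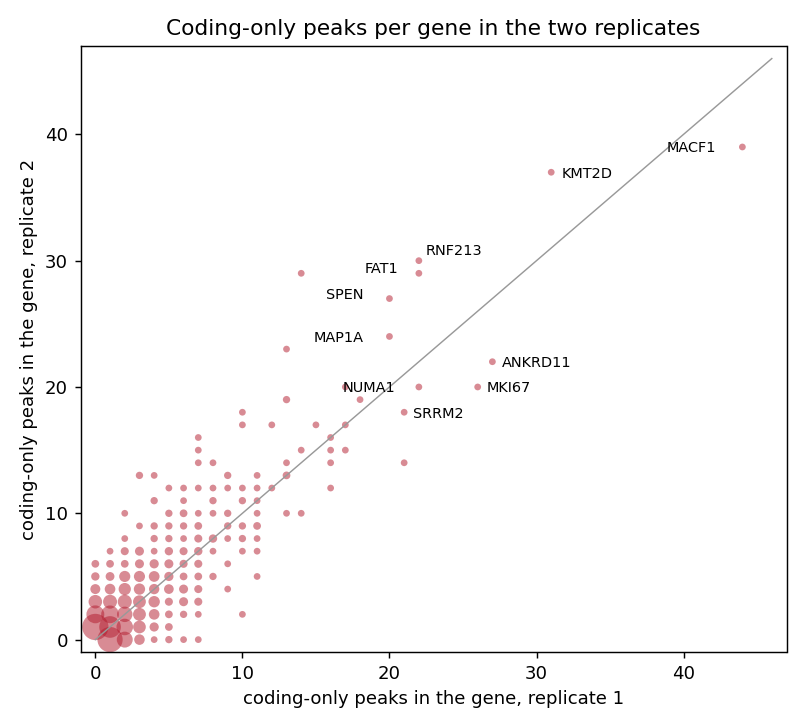
Number of coding-only peaks per gene in replicate 1 (x axis) and replicate 2 (y axis), with points sized by the number of genes at each position and a line of equal counts. MACF1 and KMT2D stand farthest from the origin, and most genes sit at 1 or 0 in each replicate.

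The genes with the most coding-only peaks mostly encode very large proteins of the cytoskeleton, chromatin or nucleus. MACF1, a giant linker of actin and microtubules, led with 44 peaks in replicate 1 and 39 in replicate 2. Their median heights were 5 and 7 tags, and 22 and 17 of them were overlapped. MACF1 also held 49 and 61 edge peaks, so coding-only peaks were 47.3% and 39.0% of the sum of both classes. KMT2D came next with 31 and 37 coding-only peaks, of 4 to 17 tags in replicate 1 and 5 to 26 in replicate 2. Its edge peaks numbered 31 and 38, close to 1 for each coding-only peak.

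RNF213, a giant AAA ATPase and ubiquitin ligase, had 22 and 30 coding-only peaks, of which 6 and 5 were overlapped. FAT1, a large atypical cadherin, had 22 and 29, and 7 in each replicate were overlapped. ANKRD11, a chromatin-associated ankyrin repeat protein, had 27 and 22, beside 6 and 5 edge peaks and as many as 95 and 150 intron-only peaks. Its coding-only peaks were thus far fewer than the peaks wholly in its introns. SPEN, a nuclear corepressor that acts on Notch targets, had 20 and 27 coding-only peaks, with 9 in each overlapped.

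MKI67, the proliferation marker Ki-67, had 26 coding-only peaks of 4 to 16 tags in replicate 1 and 20 of 6 to 24 tags in replicate 2. Its median in replicate 2 was 11 tags, above the medians of the other 9 leading genes, and 11 of the 20 had 10 tags or more. MAP1A, a microtubule-associated protein, had 20 and 24, of which 1 reached 10 tags, in replicate 2. NUMA1, an organiser of the spindle poles, had 22 and 20, and SRRM2, a scaffold of nuclear speckles, had 21 and 18. SRRM2 peaks were high, with a median of 7 tags in replicate 1 and 10.2 in replicate 2.

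Coding-only peaks far outnumbered edge peaks in some of these genes. In SRRM2 they were 95.5% and 90.0% of the sum of coding-only and edge peaks, and in MAP1A 100% and 88.9%. ANKRD11 stood at 81.8% and 81.5%, SPEN at 76.9% and 75.0% and MKI67 at 74.3% and 71.4%. In UBR4, a giant ubiquitin ligase with 21 and 14 coding-only peaks, the share was 23.9% and 14.3%, since 67 and 84 edge peaks lay in the same gene. Exon lengths were not used here.

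The layout along the gene differed between these genes. In NUMA1 most coding-only peaks of both replicates lay within a short first stretch, with a median step of 150 nt in replicate 1 and 200 nt in replicate 2. The MAP1A peaks ran across 8000 nt in replicate 1 and 6850 nt in replicate 2 at steps of 350 and 250 nt. In MKI67 the replicates covered 14600 and 14150 nt, and their highest peaks, of 16 and 24 tags, both lay in the middle of that stretch. The KMT2D peaks covered 27200 and 25950 nt, introns included, in several groups that both replicates shared.

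**Figure D4:**
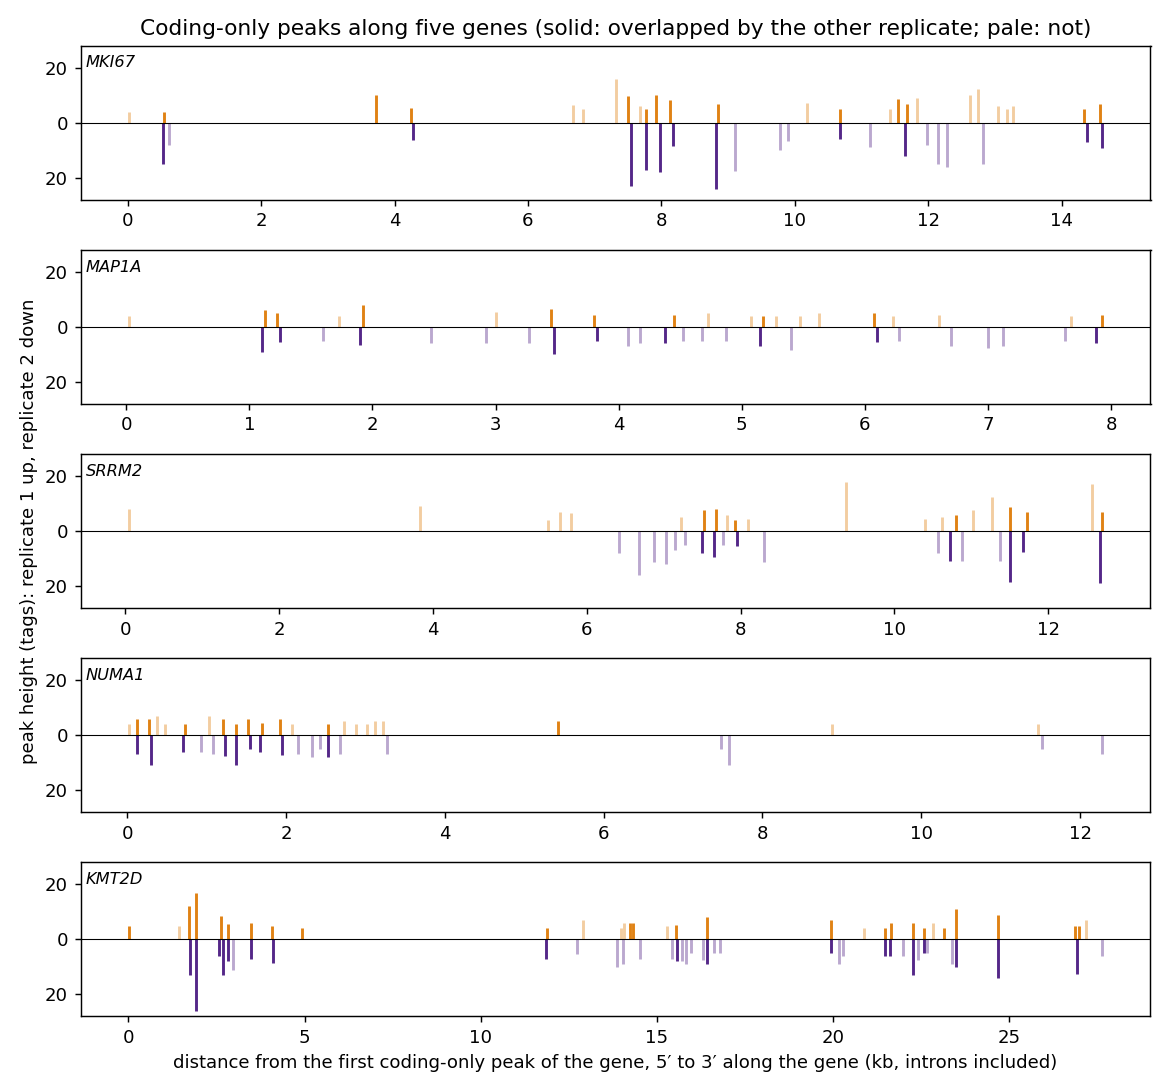
Coding-only peaks along MKI67, MAP1A, SRRM2, NUMA1 and KMT2D, by distance in kb from the first coding-only peak of the gene (x axis, introns included) and height in tags (y axis, replicate 1 upward in orange and replicate 2 downward in purple). Solid lines are peaks overlapped by any peak of the other replicate, 23 of 31 in KMT2D of replicate 1 and 7 of 21 in SRRM2, and pale lines are not.

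Some coding-only peaks lay close to each other within genes. A neighbour of the same class, gene and strand within 50 nt was found for 10.7% of those in replicate 1, with a Wilson 95% interval of 9.93 to 11.5. In replicate 2 it was found for 13.4% (12.6 to 14.2), a mean of 12% ± 1.89 (SD, n = 2). For edge peaks the shares were 3.50% and 3.70%, and for intron-only peaks 1.92% and 3.73%. Peaks wholly in 5′ UTRs stood close to coding-only peaks, at 11.7% and 11.6%, and those wholly in 3′ UTRs at 6.62% and 10.4%. Edge peaks can lie only at exon boundaries, so the classes are set side by side without a test. Within 1000 nt the shares of coding-only and edge peaks were 34.7% and 33.5% in replicate 1 and 38.4% for both in replicate 2.

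**Figure D5:**
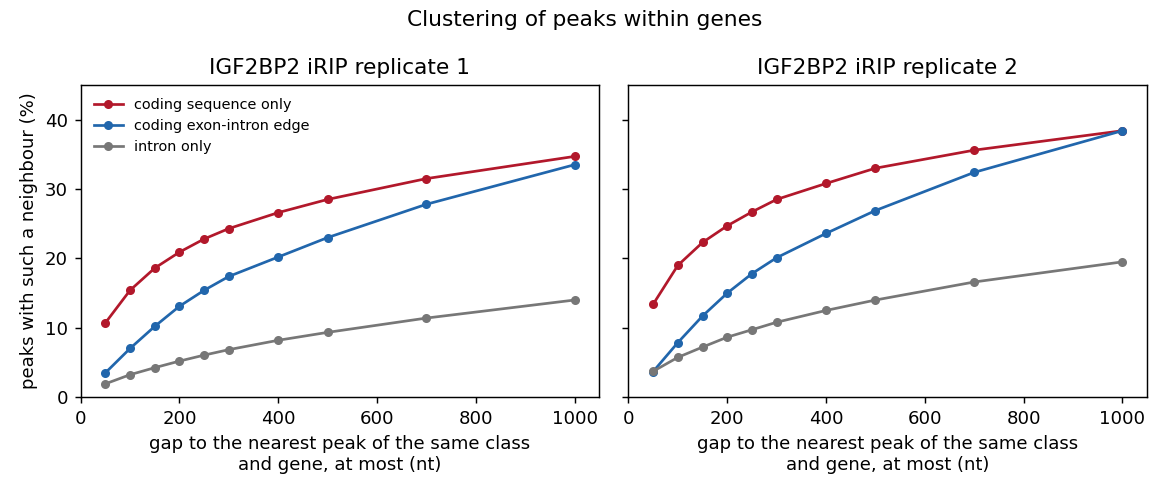
Share of peaks (y axis, percent) with a peak of the same class and gene within a given gap (x axis, nt), for each replicate. The coding-only curve (red) starts at 10.7% and 13.4% at 50 nt, above edge (blue) and intron-only peaks (grey), and the blue curve reaches it by 1000 nt in replicate 2.

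Runs of coding-only peaks with gaps of at most 50 nt numbered 286 in 224 genes of replicate 1 and 419 in 318 genes of replicate 2. Most were pairs, 245 and 347 of them. PCBP1, a poly(C)-binding hnRNP protein encoded by a gene without introns, had, with SRRM2, the longest run by the lower of both replicates. It held 4 peaks over 400 nt in replicate 1, of 4.50 to 7 tags, and 5 peaks over 800 nt in replicate 2, of 5 to 11 tags. The 2 PCBP1 bins printed earlier lie in both runs, at 4.50 and 5 tags in replicate 1 and 11 and 5 in replicate 2. PCBP1 had no edge and no intron-only peak in either replicate.

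SRRM2 had a run of 4 peaks over 850 nt in replicate 1 and another of 4 over 500 nt in replicate 2, at different places. Replicate 2 also had a second run of 4 peaks in SRRM2, and shorter runs of replicate 2 overlapped the run of 4 of replicate 1. CHST11, a chondroitin sulfotransferase of the Golgi, had 6 peaks in 1 run over 650 nt in replicate 1 and 3 over 300 nt in replicate 2, both starting at chr12:104757050. All of its coding-only peaks fell in these runs, while its introns held 292 and 355 intron-only peaks. RNF213 had runs of 3 and 4 peaks, and ANKRD11 had runs of 3 and 4. The RNF213 runs lay at different positions in the replicates. ANKRD11 had further runs of these lengths in both replicates, and a run of 3 peaks in replicate 2 overlapped a run of 3 in replicate 1.

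Gene groups differed in how many members carried coding-only peaks in both replicates. The lists were drawn up with earlier results of these data known, so their shares are a description without a test. No share or count was adjusted for coding length. As background, 1760 of 20056 RefSeq protein-coding genes, or 8.78%, were named with a coding-only peak in both, and so were 21.5% of the 8187 named genes with any CDS or UTR peak. Among 36 chromatin regulators, 27 (75.0%) had one in both. Their median lower count per gene was 6, and they held 199 and 247 coding-only peaks. Besides KMT2D these included ARID1A, a subunit of the BAF remodelling complex, with 16 and 15 peaks, the highest 9 and 24 tags. KMT2B, another H3 lysine 4 methyltransferase, had 13 and 19. HCFC1, a coregulator bound to chromatin-modifying complexes, had 10 and 17, of which 8 and 10 were overlapped.

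Of 26 actin, tubulin and large cytoskeletal or motor genes, 19 (73.1%) had coding-only peaks in both replicates, 175 and 172 in all. FLNA had 17 in each replicate, PLEC, a cytoskeletal linker, had 17 and 15, and SPTBN1, a spectrin, had 13 and 14. The tubulin genes have near-identical copies, so their counts of 5 and 2 in TUBA1B, which encodes an alpha-tubulin, are uncertain. Giant ubiquitin ligases stood at 8 of 12 (66.7%), led by RNF213, HUWE1 with 17 and 20, and UBR4. PI3K-related kinases stood at 4 of 6, with TRRAP, a scaffold of acetyltransferase complexes, at 9 and 12. These lists hold long coding sequences by their nature, and a rate per coding length could not be computed here.

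RNA-binding and splicing factors were found in both replicates at shares of 60.5% (23 of 38 hnRNP and SR factors) and 60.0% (18 of 30 core spliceosome genes). HNRNPU, a nuclear scaffold hnRNP, had 6 and 7 peaks, the highest 15.5 and 32 tags. PRPF8, the central protein of the spliceosome, had 11 and 12. SNRNP200, its RNA helicase partner, had 8 in each. In PRPF8 and SNRNP200 edge peaks outnumbered coding-only peaks, with 25 and 29 in PRPF8 and 26 and 23 in SNRNP200.

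The protein synthesis groups were uneven. Among ribosomal protein genes, 4 of 45 of the large subunit (8.89%) and 4 of 33 of the small subunit (12.1%) had coding-only peaks in both replicates. These shares were near the 8.78% of RefSeq protein-coding genes. Of the 41 and 31 members named with any CDS or UTR peak they were 9.76% and 12.9%, under the 21.5% of all such genes. Ribosomal protein genes have many processed copies in the genome, and only uniquely mapped reads were used by the authors, so their counts are uncertain. RPS3, a protein of the small subunit, still reached 9.50 and 26 tags, and RPS6, a target of S6 kinases, 11 and 14. Translation initiation and elongation factors stood at 17 of 42 (40.5%), led by EIF4G1, the scaffold of the cap-binding complex, with 11 and 9 peaks. Aminoacyl-tRNA synthetases stood at 10 of 20. Among them FARSA, the alpha subunit of the phenylalanine enzyme, had 4 in each replicate, and all 4 of replicate 2 were overlapped. Its 2 printed bins had 5 and 7 tags in replicate 1 and 11 and 19.5 in replicate 2.

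Heat shock proteins and the TRiC chaperonin stood at 13 of 24, nucleolar and snoRNP proteins at 10 of 22, replication genes at 8 of 22 and glycolytic enzymes at 6 of 17. HSP90AB1, a cytosolic Hsp90, had 6 and 4 peaks, with 3 of each overlapped. POLE, the catalytic subunit of DNA polymerase epsilon, had 13 in each replicate, with 7 of each overlapped. GPI, the second enzyme of glycolysis, had 2 and 4, the highest 10 and 23 tags.

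Among 32 Notch receptors and pathway partners, 7 (21.9%) had coding-only peaks in both replicates, beside 8.78% of RefSeq protein-coding genes. Of the 21 that were named with any CDS or UTR peak these were 33.3%, beside 21.5% of all such genes. NOTCH1, the receptor often mutated in T-cell leukaemia, had 16 in each replicate, with heights up to 10 and 9 tags, and 7 and 6 were overlapped. NOTCH1 also held 21 and 23 edge peaks. MYC, a transcription factor downstream of NOTCH1, had 7 and 8, up to 9.33 and 17 tags, with 4 of each overlapped. NOTCH3 had 3 and 5, and NOTCH2 had 6 in replicate 2 and none in replicate 1. HES4, a Notch target, had 1 and 3.

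T-cell receptor and proximal signalling genes were found in both at 9 of 26 (34.6%). PLCG1, the phospholipase activated downstream of the receptor, had 4 and 6 peaks, and ZAP70, its upstream kinase, had 4 and 3. PTPN6, a phosphatase that dampens this signalling, had 6 and 3. Of 11 T cell markers, CD3E, CD3G, CD7, LCK and ZAP70 had coding-only peaks in both replicates. The 5 B cell and 4 erythroid markers had none, and of the 5 myeloid markers MPO had 1 peak of 5 tags, in replicate 2. A gene without a peak may still be expressed.

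Of the 19 genes of the IGF2BP family and the m6A machinery, 7 (36.8%) were in both. RBM15, an adaptor of the m6A writer complex, had 10 and 11 coding-only peaks, up to 9 and 14 tags. RBM15B, its paralogue, had 4 and 11. Neither gene had an intron-only peak, and 1 edge peak lay in RBM15, in replicate 2. ALKBH5, an m6A demethylase, had 2 and 3, none overlapped. IGF2BP1 had 1 in each, of 4 and 5 tags, and IGF2BP2 had no coding-only peak in either. In the PI3K, AKT and mTOR pathway 6 of 21 genes (28.6%) were in both. MTOR, the kinase itself, had 3 in each, and TSC2, its inhibitor, had 3 and 2, up to 10 and 12 tags.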

How the data were processed

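The authors made iRIP-seq libraries from Jurkat cells and sequenced read pairs. Per the submitters' processing notes the tools were bcl2fastq and TopHat2 with GRCh38. From reads with a unique position, the authors called peaks library by library, against simulated reads within each gene, and dropped those shared with input. The deposited height of each peak is a signal in tags, with the authors' p-value, length, region shares and gene identifier. The 2 input libraries were not analysed here. Depth per sample is not given in the sources used here, so heights were not adjusted, and intervals cover counting error only.

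The members and gene lists were chosen with earlier results of these data known. Peaks were read as half-open intervals. Peaks overlapped if they shared at least 1 bp and the strand. Edge peaks name both CDS and intron. Identifiers took the RefSeq (GRCh38.p14) protein-coding symbol whose interval, with a margin of 1000 nt, held at least 80% of their CDS and UTR peaks on the right strand. Ties went to the only gene of known, matching strand, and a symbol shared by several identifiers to the one with at least 5 times the peaks of the next. This named 4300 of 4394 genes (97.9%). Promoter windows span 250 bases before to 50 after a gene start.

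Within each library, shares were compared by Fisher's exact test, two-sided, with Benjamini-Hochberg adjustment over 8 tests and Wilson 95% intervals. Named genes were the 10 with the most coding-only peaks by the lower count, the 10 with the highest pair by the lower height, the 5 with the longest run, and up to 3 per gene list (22 lists). Peaks per kb of coding sequence, also planned, was not computed, as no table of coding lengths was at hand. Functions were tested on simulated data. Python 3.11.15, numpy 2.4.6, pandas 2.3.3, scipy 1.17.1 and matplotlib 3.10.9 were used.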

Additional observations from a re-analysis of the deposited data

How the results depend on the processing

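Of 89 alternative values, 67 were counted as the same, 20 shares or counts as moved, 1 difference as weaker and 1 as reversed. Differences counted as the same kept their direction and, where tested, their side of the threshold, though some changed several-fold in size. Values with a replicate left out only repeat the main value of the other replicate, so their count among the 67 is no test. With 10 tags as a minimum in both lists, the coding-only share was 7.62% in replicate 1 and 7.87% in replicate 2, overlap was 42.2% and 10.2%, close neighbours were 6.42% and 8.49%, and 100 genes were in both replicates. With a deposited p-value under 0.001, the share was 9.50% and 9.22%, overlap in replicate 2 was 15.6%, neighbours were 6.49% and 10.1%, and 500 genes were in both. With CDS as the largest share, ties going to the other class, the share was 9.95% and 14.1%, overlap 45.8% and 35.0%, and 3456 genes were in both. Under that definition, which moves most edge peaks into the class, the difference in overlap from the remaining edge peaks in replicate 2 reversed to 2.50 points (Fisher's exact p = 3.66e-04), and the difference in high peaks in replicate 1 was -0.694 points (Fisher's exact p = 0.146). The overlap difference in replicate 1 shrank from -22.5 to -3.39 points and the high-peak difference in replicate 2 from -15.4 to -1.60. With the 10-tag minimum the overlap differences in replicate 2 shrank from -15.8 to -6.21 (edge) and from 18.8 to 5.24 (intron-only). The difference in high peaks from intron-only peaks ranged from 0.545 to 9.62 points in replicate 1 and from 1.92 to 19.6 in replicate 2. A gap of 500 nt gave neighbours for 28.5% and 33.0%.

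Each replicate left out in turn gave a coding-only share of 4.01% to 5.10%, overlap of 22.0% to 30.5% and neighbours of 10.7% to 13.4%. The differences in overlap ranged from -22.5 to -15.8 points against edge peaks and from 18.8 to 27.6 against intron-only peaks. The differences in high peaks ranged from -15.4 to -6.69 and from 2.97 to 8.28 points. No paired analysis was possible because the input libraries have no peak list here. Peaks per coding length was not run. Depth is unknown, so a low peak missing from 1 list is not shown to be absent from that RNA.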

Other observations

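Histone genes, picked after their values were seen and so described without a test, often carried coding-only peaks. Most histone mRNAs have no introns and end in a stem-loop in place of a poly(A) tail. Of 89 RefSeq protein-coding histone genes, 40 had a coding-only peak in replicate 1, 45 in replicate 2 and 35 (39.3%) in both. Among all RefSeq protein-coding genes 8.78% were named with such a peak in both. The histone genes held 65 and 66 peaks, of which 61.5% and 57.6% were overlapped, beside 30.5% and 22.0% of all coding-only peaks. H1-5, a linker histone, had 2 peaks up to 11.5 tags in replicate 1 and 3 up to 39 tags in replicate 2. H2BC11, a core histone H2B, had 3 in each, all overlapped, up to 12 and 16 tags. H3C11, a core histone H3, had 2 up to 24.5 tags and 1 of 11. H1-2 had 5 peaks up to 21 tags in replicate 1 and none in replicate 2. Of the 50 histone genes with a coding-only peak in either replicate, 2 had an edge peak and 6 had an intron-only peak. These genes have near-identical copies, so reads may have been assigned to a copy unevenly, and the counts of single genes are uncertain.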
